A study of Rattus norvegicus with 30 samples.

Results

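The genes described here encode the machinery of oxidative phosphorylation in rat liver. They were taken by name: every gene whose symbol on the array begins with Nduf, Sdh followed by a to d, Uqcr, Cox4 to Cox8, or Atp5. The rule found 90 of the 14217 genes that had a probe set of their own, and no expression value entered it. Each gene was read from 1 probe set, the one with the highest mean over all arrays. By symbol, 42 belong to complex I, 8 to complex II, 7 to complex III, 17 to complex IV and 16 to complex V. Of the 90, 70 are subunits of the complexes as liver makes them. The others are 10 assembly factors, 7 isoforms known chiefly from other tissues or conditions, the ATP synthase inhibitor Atp5if1, the supercomplex factor Cox7a2l and the transcribed pseudogene Cox6c-ps1. Ndufa4 is counted with complex I by its symbol, although its protein is now placed in complex IV.

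Oxidative phosphorylation takes place in the inner mitochondrial membrane. Complexes I and II pass electrons from NADH and succinate to ubiquinone, complex III passes them on to cytochrome c, and complex IV hands them to oxygen. Complexes I, III and IV pump protons, and complex V, the ATP synthase, uses the returning protons to make ATP. A few core subunits are encoded in mitochondrial DNA and are outside the symbol rule, while the nuclear genes described here supply the rest. Hepatocytes are rich in mitochondria, and liver spends much of this ATP on glucose and urea synthesis.

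Wistar Han rats were given corn oil alone or with DE-71, a commercial flame retardant made of polybrominated diphenyl ethers (PBDE). PBDE groups received 50 mg/kg and control groups 0 mg/kg, by gavage in corn oil at 5 ml/kg. Dams were dosed from gestation day 6 through postnatal day 21 7 days a week; their pups also received direct doses, which went on for 5 days a week once they were weaned. There were 6 groups of 5 livers each: male PBDE pups, male control pups, female PBDE pups and female control pups on postnatal day 22, and adult PBDE males and adult control males at week 13. Every pup had a different dam, and so had the adults within a dose group, so litter effects enter the spread between arrays. Each liver was measured on 1 Affymetrix Rat Genome array.

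Promoters are shown for the 9 genes whose values are plotted array by array below, with and without motif matches: Ndufs7, Ndufb10, Ndufa6, Ndufa11 and Cox8b passed the threshold in a dose comparison, and Ndufaf4, Sdha, Ndufs4 and Atp5if1 in the age comparisons. Each runs from 250 bases before to 50 bases after the start given by RefSeq on the rat assembly GRCr8. Capitals mark letters that match a motif on either strand. The motifs searched were the NRF1 palindrome (GCGCA, any base, then GCGC), the ETS motif CCGGAAG, the SP1 motif GGGCGG, the YY1 motif AAGATGG and the nuclear receptor motif AAGGTCA. The palindrome can match on both strands at once, and 2 copies of it overlap in Ndufa11.
Ndufs7, chr7:10110449-10110748, minus strand: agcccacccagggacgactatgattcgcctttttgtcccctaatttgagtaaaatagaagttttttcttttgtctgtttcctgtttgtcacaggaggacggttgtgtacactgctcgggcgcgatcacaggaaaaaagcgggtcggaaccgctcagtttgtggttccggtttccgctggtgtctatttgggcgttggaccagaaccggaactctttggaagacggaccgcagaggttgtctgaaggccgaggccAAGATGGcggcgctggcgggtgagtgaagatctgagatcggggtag
Ndufb10, chr10:14255917-14256216, minus strand: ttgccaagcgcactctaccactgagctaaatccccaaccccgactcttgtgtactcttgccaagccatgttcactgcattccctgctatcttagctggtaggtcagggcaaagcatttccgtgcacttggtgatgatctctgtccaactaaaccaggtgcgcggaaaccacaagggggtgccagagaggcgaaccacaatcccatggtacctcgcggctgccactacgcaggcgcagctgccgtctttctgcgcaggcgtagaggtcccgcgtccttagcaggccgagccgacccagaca
Ndufa6, chr7:115750268-115750567, minus strand: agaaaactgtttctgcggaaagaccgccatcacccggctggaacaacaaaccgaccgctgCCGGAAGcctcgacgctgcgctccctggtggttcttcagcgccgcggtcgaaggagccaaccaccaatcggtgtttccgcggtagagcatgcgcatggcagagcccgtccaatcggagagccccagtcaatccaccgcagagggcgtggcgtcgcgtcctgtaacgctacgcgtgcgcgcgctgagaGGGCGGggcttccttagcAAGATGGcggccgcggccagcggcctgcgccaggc
Ndufa11, chr9:1637364-1637663, plus strand: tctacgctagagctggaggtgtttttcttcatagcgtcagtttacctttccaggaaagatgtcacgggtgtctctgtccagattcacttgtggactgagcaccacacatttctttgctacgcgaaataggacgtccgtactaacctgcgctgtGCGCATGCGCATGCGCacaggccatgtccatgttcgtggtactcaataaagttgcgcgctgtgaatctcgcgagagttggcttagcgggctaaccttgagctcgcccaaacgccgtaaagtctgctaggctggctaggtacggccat
Ndufaf4, chr5:43401545-43401844, plus strand: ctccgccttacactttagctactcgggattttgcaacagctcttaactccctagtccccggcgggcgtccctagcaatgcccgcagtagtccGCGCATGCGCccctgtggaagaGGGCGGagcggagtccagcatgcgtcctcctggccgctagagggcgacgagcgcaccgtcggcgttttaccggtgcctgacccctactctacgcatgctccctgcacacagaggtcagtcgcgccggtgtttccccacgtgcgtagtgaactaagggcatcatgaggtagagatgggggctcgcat
Sdha, chr1:30764303-30764602, plus strand: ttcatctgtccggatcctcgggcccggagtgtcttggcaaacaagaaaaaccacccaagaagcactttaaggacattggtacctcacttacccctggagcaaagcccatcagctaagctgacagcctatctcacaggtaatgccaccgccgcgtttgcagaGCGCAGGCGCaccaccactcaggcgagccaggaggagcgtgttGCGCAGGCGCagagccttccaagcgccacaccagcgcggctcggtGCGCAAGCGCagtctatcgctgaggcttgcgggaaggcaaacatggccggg
Ndufs4, chr2:47794865-47795164, minus strand: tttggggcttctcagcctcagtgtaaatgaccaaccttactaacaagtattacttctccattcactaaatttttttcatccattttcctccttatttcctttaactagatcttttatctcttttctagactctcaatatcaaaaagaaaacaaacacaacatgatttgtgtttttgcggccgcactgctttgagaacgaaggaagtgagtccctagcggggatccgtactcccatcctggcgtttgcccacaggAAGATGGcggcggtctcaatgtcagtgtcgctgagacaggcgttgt
Atp5if1, chr5:150026628-150026927, minus strand: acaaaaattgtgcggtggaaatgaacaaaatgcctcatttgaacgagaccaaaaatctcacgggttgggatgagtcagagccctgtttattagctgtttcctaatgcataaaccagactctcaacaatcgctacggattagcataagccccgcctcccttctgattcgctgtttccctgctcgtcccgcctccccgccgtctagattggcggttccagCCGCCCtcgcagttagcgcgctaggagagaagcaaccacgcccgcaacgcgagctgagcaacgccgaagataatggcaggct
Cox8b, chr1:205408224-205408523, minus strand: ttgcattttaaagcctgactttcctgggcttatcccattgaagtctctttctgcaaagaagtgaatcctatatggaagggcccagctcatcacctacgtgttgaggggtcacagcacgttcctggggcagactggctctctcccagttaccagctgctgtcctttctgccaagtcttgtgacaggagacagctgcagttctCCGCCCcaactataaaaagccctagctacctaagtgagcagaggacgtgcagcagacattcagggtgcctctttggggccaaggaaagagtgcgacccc
The Ndufs7 and Ndufs4 windows hold the YY1 motif just after the start, and the Ndufa6 window holds the ETS, SP1 and YY1 motifs. The palindrome stands 3 times in the Sdha window, and once, beside the SP1 motif, in that of Ndufaf4. The Atp5if1 and Cox8b windows hold the SP1 motif alone, and the Ndufb10 window holds none of the 5.

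Among the 90 genes, 82 had such a promoter. The NRF1 palindrome stood in 20.73% of them, against 4.71% of all 27457 promoters of the same length. The ETS motif stood in 30.49% against 9.22%, the YY1 motif in 24.39% against 7.3%, the SP1 motif in 46.34% against 34.89% and the nuclear receptor motif in 13.41% against 4.37%. NRF1, the ETS factor GABP and YY1 are textbook activators of nuclear genes for mitochondrial proteins. A match in letters is a description of the window and shows no binding in these livers. None of the first 2 motifs stood in the 6 promoters of isoforms from other tissues.

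Values are log2 intensities made by the authors with RMA, and their level depends on the probes as well as on the transcript, so levels are given beside the array median of 5.74 and not ranked between genes. The 70 liver subunits read between 8.56 and 13.52 as means over 30 arrays, and the 10 assembly factors between 7.07 and 9.49. The 7 isoforms Cox4i2, Cox6a2, Cox6b2, Cox7a1, Cox7b2, Cox8b and Ndufa4l2 read between 3.47 and 5.19, all below the array median. Their counterparts Cox4i1, Cox6a1, Cox6b1, Cox8a and Ndufa4 all had means between 11.99 and 12.95. The SD between arrays of a group had a median of 0.13 over the 90 genes and 0.15 over all genes.

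The liver label held, with all 8 hepatocyte markers above the array median in every group and 7 of 8 striated muscle markers below it. Array medians over all probe sets ran from 5.72 to 5.77, while adult PBDE replicate 5 correlated least with the arrays of its group, at a mean of 0.988. That array also had the lowest median over the 90 genes, 11.34, against 11.57 to 11.72 on the other 4 adult PBDE arrays and 11.68 to 11.85 on the 5 adult control arrays. The array names carry 2 prefixes. Male PBDE, male control and female control pups share one, and female PBDE pups and both adult groups share the other. The prefix therefore cannot be told apart from dose in female pups, from sex in PBDE pups, or from age.

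DE-71 moved few oxidative phosphorylation genes past the test in any of the 3 dose comparisons. Those were 1 of 90 in male pups, 2 of 90 in female pups and 3 of 90 in adult males, 5 different genes in all. At an unadjusted p under 0.05 by limma there were 28 (31.1%), 25 (27.8%) and 37 (41.1%) in the same order. Among all genes these shares were 28.3%, 25.4% and 18.5%. Of those members, 3 were higher and 25 lower in male pups, 6 and 19 in female pups, and 0 and 37 in adult males. The median difference over the 90 genes, PBDE minus control, was -0.08 in male pups, -0.05 in female pups and -0.15 in adult males. Over all genes these medians were 0.02, 0.02 and 0.01. Subunits of complex I make up 4 of the 5 genes past the threshold: Ndufs7, Ndufb10, Ndufa6 and Ndufa11, all lower with DE-71. The plot of differences by complex shows most liver subunits left of 0 in each comparison, with small differences.

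**Figure D1:**
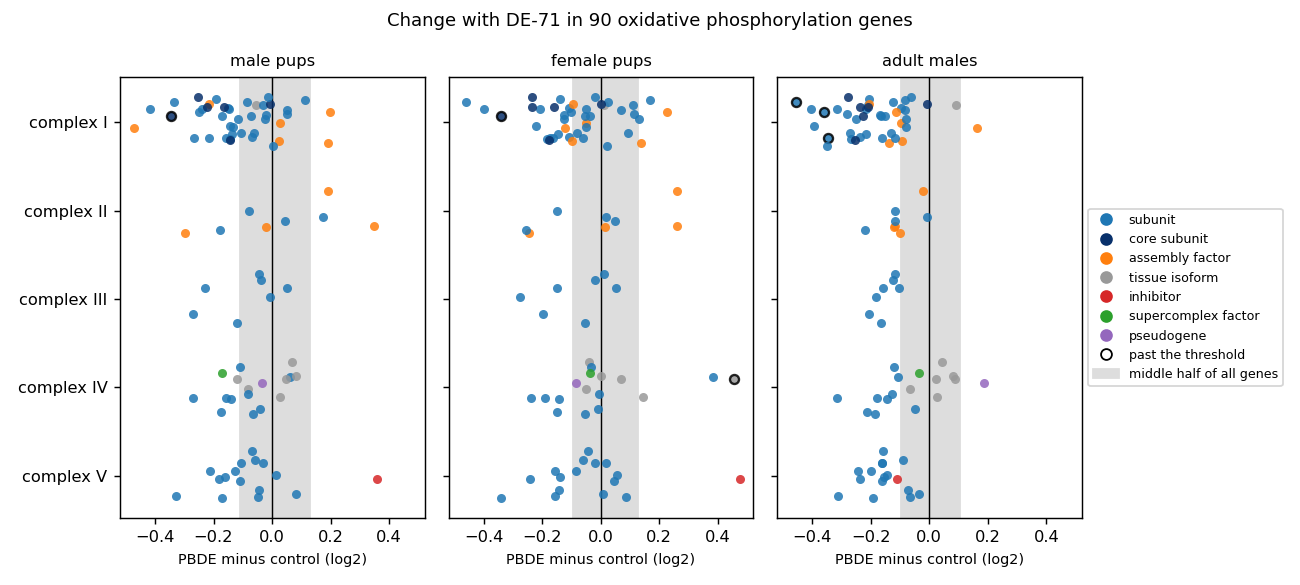
Difference PBDE minus control on the log2 scale (horizontal axis) for each of 90 genes (points), by complex, in male pups, female pups and adult males. Colours give the class of gene, a black ring marks genes past the threshold, and the grey band spans the quartiles of all 14217 genes; in adult males all 70 liver subunits lie left of 0, down to -0.45.

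In male pups, Ndufs7 was the 1 gene past the false discovery rate of 0.01 that the study set for pups. Ndufs7 encodes the core subunit of complex I that carries the last iron-sulfur cluster before ubiquinone. It read 10.99, 11.18, 10.90, 11.06 and 10.94 in male PBDE pups, against 11.41, 11.24, 11.41, 11.39 and 11.36 in male control pups. All 5 PBDE values lay below all 5 control values. The difference was -0.35 ± 0.08 (SE) with an adjusted p of 0.00455 by limma. Among all genes 7.48% passed the threshold in this comparison, 4.23% higher and 3.26% lower, so the share of 1.11% among the 90 was below the background.

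That call lay close to its threshold. It was lost on leaving out any of 7 arrays (male PBDE replicate 1, 3 or 5, or male control replicate 1, 3, 4 or 5), with adjusted p of up to 0.0172, when the 2 groups were fitted alone, and with the Gapdh difference described below as a covariate.

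Members short of the threshold in male pups are given by their values. Uqcrc2, a core protein of complex III, read 11.34, 11.47, 11.37, 11.47 and 11.34 in male PBDE pups, against 11.69, 11.59, 11.74, 11.69 and 11.63 in male control pups (difference -0.27 ± 0.09, adjusted p 0.0393). Its groups did not overlap. A second, dimmer probe set of Uqcrc2 differed by -0.62 ± 0.32 (adjusted p 0.246). Ndufaf4, an assembly factor of complex I, read 9.73, 9.62, 9.58, 9.42 and 9.34 in male PBDE pups, against 9.68, 10.45, 9.82, 10.00 and 10.09 in male control pups (difference -0.47 ± 0.12, adjusted p 0.0122). The Ndufaf4 groups overlapped through control replicate 1, and leaving that array out put the gene past the threshold (difference -0.55 ± 0.13, adjusted p 0.00426). The groups of 4 genes did not overlap: Atp5if1 was higher, and Ndufs7, Sdhb and Uqcrc2 were lower. Of all genes, 11.9% did not overlap in this comparison, 6.77% higher and 5.13% lower.

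In female pups, Ndufs7 was again past the threshold and lower, and Cox8b was past it and higher. Ndufs7 read 11.09, 11.11, 10.95, 11.18 and 11.10 in female PBDE pups, against 11.70, 11.44, 11.46, 11.18 and 11.36 in female control pups. The highest PBDE value lay just below the lowest control value, so the groups did not overlap. The difference was -0.34 ± 0.08 (adjusted p 0.00598). Among all genes 6.13% passed, 2.18% lower and 3.95% higher, so 2 of 90 is below the background.

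Cox8b, the heart and muscle isoform of a small complex IV subunit, read 4.20, 4.44, 4.78, 4.85 and 4.81 in female PBDE pups, against 4.18, 4.24, 4.21, 4.01 and 4.18 in female control pups. Replicates 2 to 5 of the PBDE group stood above every control, replicate 1 did not, and all values lay below the array median. The difference was 0.46 ± 0.11 (adjusted p 0.00991). Among the 8 striated muscle markers 0 passed the threshold in female pups, 7 lay below the array median, and their summed level on the log2 scale ran from 7.58 to 8.497 in female PBDE pups and from 7.54 to 7.75 in female control pups. Among the 7 adipose markers 1 was past the threshold and higher, and their summed level ran from 9.37 to 10.08 in PBDE and from 8.88 to 9.47 in control females. Whether other tissue had a part in the Cox8b value was not tested.

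Both female calls were close to the threshold. That of Ndufs7 was lost without control replicate 1, 2 or 3 or PBDE replicate 1, 2, 3 or 5 (adjusted p up to 0.0285), and that of Cox8b without any 1 of the 5 controls or without PBDE replicate 3, 4 or 5 (adjusted p up to 0.041). Both were also lost with the 2 groups fitted alone and with the Gapdh covariate, and that of Cox8b with a replicate block and with arrays centred on their means.

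Other genes of female pups came near the threshold. Ndufb10, an accessory subunit in the membrane arm of complex I, read 10.59, 10.72, 10.58, 10.71 and 10.61 in female PBDE pups, against 11.37, 11.01, 11.17, 11.02 and 10.94 in female control pups (difference -0.46 ± 0.12, adjusted p 0.012). Its groups did not overlap. Atp5if1, which blocks ATP hydrolysis by the ATP synthase, read 9.49, 9.44, 9.51, 9.80 and 9.44 in female PBDE pups, against 9.09, 9.09, 9.003, 8.89 and 9.23 in female control pups (difference 0.47 ± 0.12, adjusted p 0.0124). Every PBDE value of this Atp5if1 probe set lay above every control value. The dimmer probe sets of the gene differed by 0.38 ± 0.12 (adjusted p 0.0475) and -0.06 ± 0.17 (adjusted p 0.902). Cox5a, a nuclear subunit of complex IV, differed by 0.38 ± 0.10 (adjusted p 0.0142). In all, 9 genes did not overlap: Atp5if1, Cox5a and Sdhaf4 were higher, and Atp5f1a, Atp5pb, Ndufb10, Ndufs7, Sdhb and Uqcrfs1 were lower, where the share of all genes was 10.9% (6.56% higher and 4.38% lower).

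In adult males, 3 accessory subunits of complex I were lower with DE-71 at the false discovery rate of 0.05 that the study set for adults. Ndufb10 read 11.19, 11.26, 10.82, 10.83 and 10.44 in adult PBDE males, against 11.38, 11.40, 11.33, 11.53 and 11.18 in adult control males (difference -0.45 ± 0.12, adjusted p 0.0284). The groups overlapped, since PBDE replicates 1 and 2 lay above the lowest control. Ndufa6 read 12.05, 11.81, 11.88, 11.77 and 11.64 in adult PBDE males, against 12.10, 12.20, 12.17, 12.39 and 12.07 in adult control males (difference -0.36 ± 0.09, adjusted p 0.0222). Its highest PBDE value was just under its lowest control value. Ndufa11 read 11.91, 11.83, 11.78, 11.58 and 11.55 in adult PBDE males, against 12.02, 12.18, 12.05, 12.20 and 11.91 in adult control males (difference -0.34 ± 0.08, adjusted p 0.013). PBDE replicate 1 and control replicate 5 of Ndufa11 met at nearly the same value, so the groups touched. The background was 3.9% of all genes, 1.86% higher and 2.04% lower, beside 3.33% of the 90.

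The adult calls rested on single arrays. Without adult PBDE replicate 4 or 5 the count was 0, without control replicate 4 it was 1, without PBDE replicate 1 it was 7 and without PBDE replicate 2 it was 9. Ndufb10 lost its call without control replicate 1, 2, 3 or 4 or PBDE replicate 3, 4 or 5 (adjusted p up to 0.112), Ndufa6 without control replicate 4 or PBDE replicate 4 or 5 (up to 0.0813), and Ndufa11 without PBDE replicate 4 or 5, and all 3 with the 2 groups fitted alone. Ndufb10 also lost it with the Gapdh covariate.

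All 70 liver subunits had a difference below 0 in adult males, from -0.45 to -0.01, with a median of -0.16. Of all 14217 genes, 47.51% were below 0. Without adult PBDE replicate 5 it was 68 of 70 with a median of -0.12, without control replicate 4 also 68 with -0.12, and over all 10 arrays left out in turn it was 68 to 70. Quantile normalization done anew gave 66 of 70, the mean over all probe sets of a gene 69, and the Gapdh covariate 68. The subunits varied together between arrays, so that these 70 differences are not separate observations. After removing group means, the median correlation between 2 liver subunits was 0.64 over 30 arrays, which share their RNA, labelling and normalization, against 0.18 between 2 of the 7 isoforms.

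Non-overlapping adult groups were found in 6 genes, all lower: Atp5mc3, Atp5pb, Ndufa6, Ndufb6, Ndufb9 and Ndufs7, where 4.59% of all genes did not overlap, 2.44% higher and 2.15% lower. Atp5mc3, which encodes the proton-carrying c subunit of the ATP synthase, read 13.39, 13.38, 13.38, 13.38 and 13.18 in adult PBDE males, against 13.50, 13.51, 13.52, 13.55 and 13.42 in adult control males (difference -0.16 ± 0.06, adjusted p 0.164). Ndufs7 read 11.40, 11.41, 11.24, 11.17 and 11.002 in adult PBDE males, against 11.43, 11.47, 11.51, 11.52 and 11.43 in adult control males (difference -0.23 ± 0.08, adjusted p 0.125). PBDE replicates 1 and 2 of Ndufs7 lay just below the controls and replicate 5 lay farthest away. Neither gene passed the threshold in adults.

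**Figure D2:**
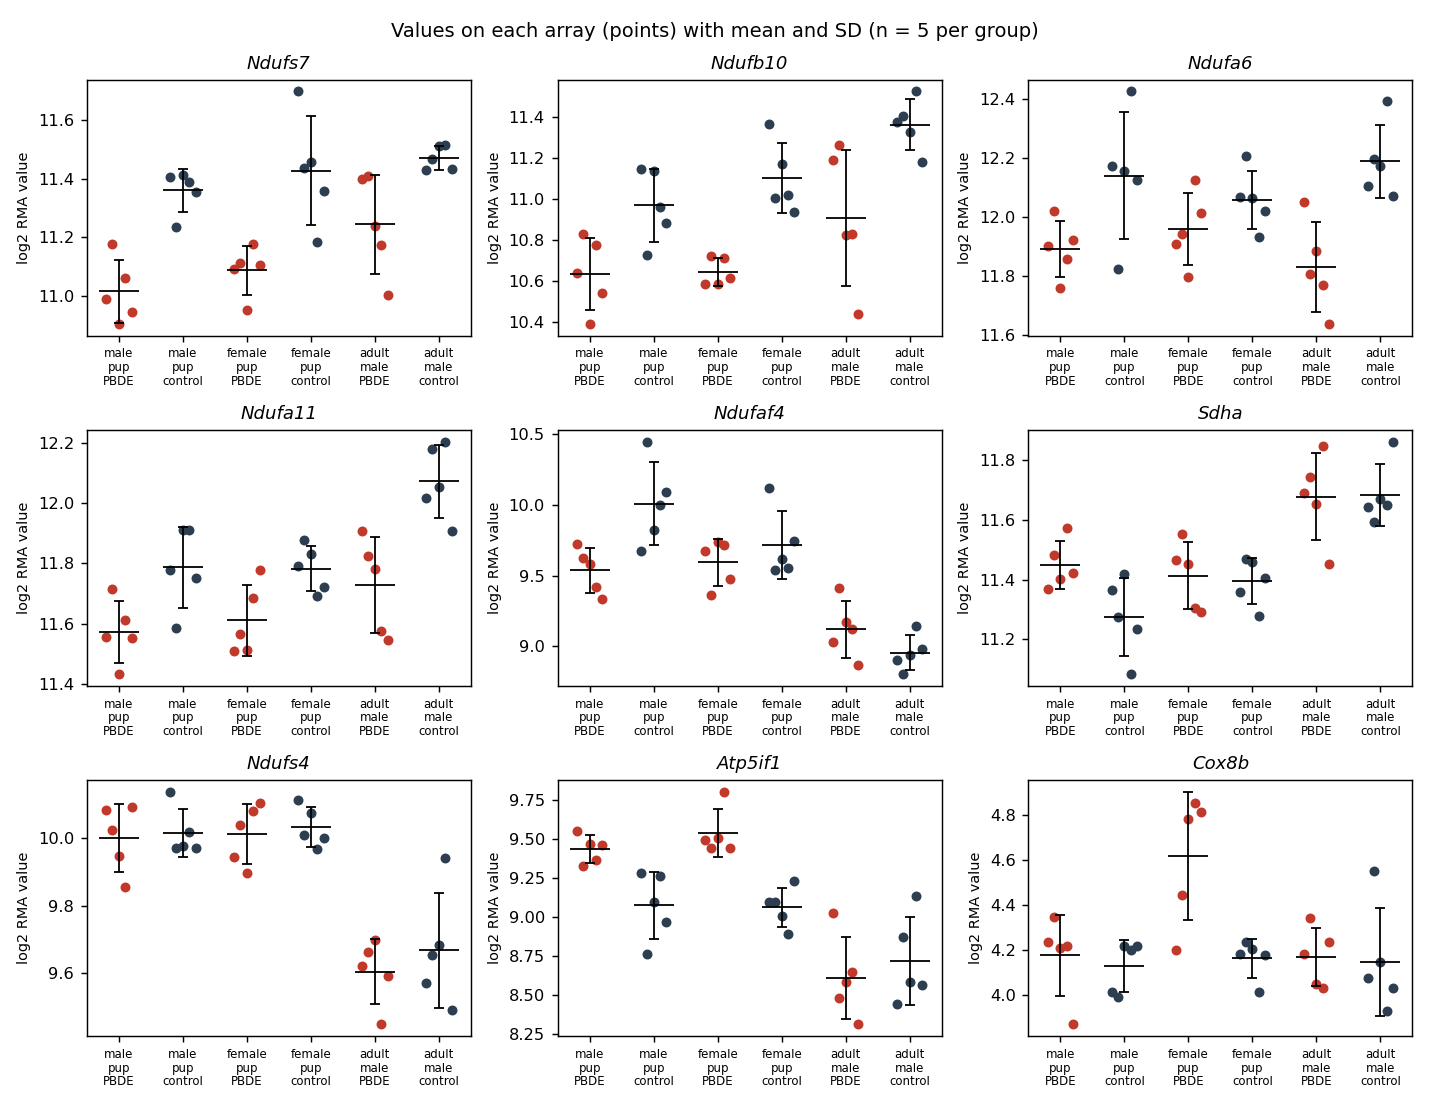
Log2 RMA values (vertical axis) of 9 genes on each array (points) with the mean and SD of each group of 5, PBDE groups in red and control groups in dark blue. Ndufs7 lies lower in PBDE than in control groups in pups of both sexes, Ndufaf4 and Ndufs4 lie lower in adults than in pups, and Cox8b averages 4.62 in female PBDE pups, against 4.16 in female control pups.

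The 3 dose comparisons share no array. Of the 90 genes, 55 (61.11%) had a difference below 0 in all 3, against 20.07% of all genes. Among liver subunits it was 51 of 70 (72.86%), among assembly factors 2 of 10 (20%), and among the 7 isoforms 1. The 3 genes above 0 in all 3 were isoforms below the array median. Single differences were small: medians for the 70 liver subunits were -0.11 in male pups, -0.08 in female pups and -0.16 in adult males, and 60, 51 and 70 of them lay below 0. These counts describe the sign alone, which was not tested.

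By complex, the 35 complex I subunits had medians of -0.14, -0.11 and -0.22 in male pups, female pups and adult males. In complex II the catalytic flavoprotein Sdha differed by 0.17, 0.02 and -0.01 and the membrane anchor Sdhc by 0.04, 0.05 and -0.12, while the iron-sulfur subunit Sdhb differed by -0.18, -0.26 and -0.22 and the anchor Sdhd by -0.08, -0.15 and -0.12. Of these 4 subunits, 0 passed the threshold. A second probe set of Sdhd, with a mean of 11.22 beside 11.94, differed by -0.15, -0.15 and -0.31. It did not pass either (adjusted p 0.446, 0.474 and 0.122 by limma). Sdhb read 11.57, 11.67, 11.56, 11.66 and 11.48 in male PBDE pups, against 11.70, 11.68, 11.92, 11.80 and 11.73 in male control pups, and its groups did not overlap in pups of either sex. Medians of complex III were -0.04, -0.05 and -0.16, and of complex V with its inhibitor gene -0.09, -0.05 and -0.16. Over all 17 genes of complex IV they were -0.08, -0.04 and -0.06. Those 17 include 6 isoforms from other tissues, all below the array median, and 1 pseudogene. The complex IV medians are therefore not those of liver subunits alone. In adult males the 17 ran from -0.31 to 0.19, with 11 below 0. The complex IV subunits Cox4i1, Cox6a1, Cox6b1, Cox6c and Cox8a differed by between -0.19 and -0.01 in these comparisons, and 0 of them passed. Other liver subunits of complex IV lay outside that range. Cox5b was the lowest of the 17 in each comparison, at -0.27, -0.24 and -0.31, and Cox5a differed by 0.38 in female pups. Neither passed.

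**Figure D3:**
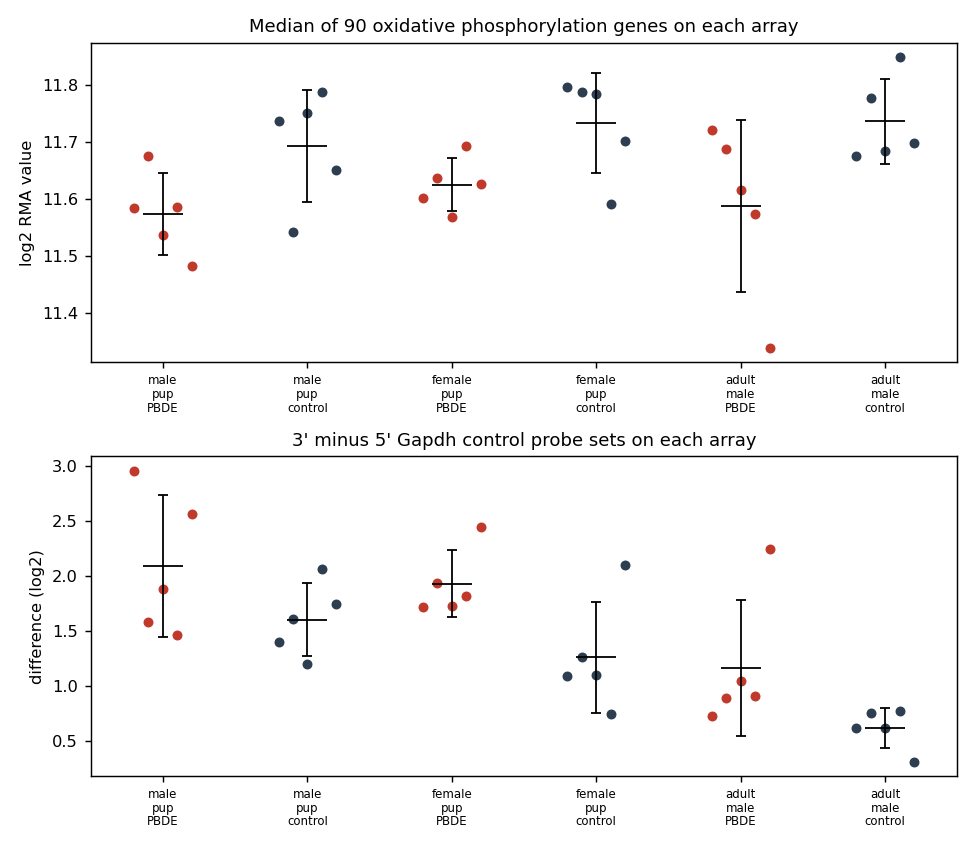
Median of the 90 genes on each array (upper panel, log2 RMA value) and the Gapdh 3' minus 5' value of the same arrays (lower panel, log2), points for arrays with the group mean and SD (n = 5 each). Adult PBDE replicate 5 has the lowest median, 11.34, and within its group the highest Gapdh difference, 2.25.

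A sign of RNA integrity was higher by value in each PBDE group, although no test of it passed after adjustment. The Gapdh 3' minus 5' value, the difference of 2 control probe sets, which grows as RNA is broken because labelling starts at the 3' end, averaged 2.09 ± 0.65 in PBDE males and 1.61 ± 0.33 in control males among pups (SD, n = 5 each, two-sided exact permutation p = 0.198). It was 1.93 ± 0.30 in female PBDE pups and 1.26 ± 0.50 in female control pups (exact permutation p = 0.0397), and 1.17 ± 0.62 in adult PBDE males and 0.62 ± 0.18 in adult control males (exact permutation p = 0.0238). Over the 6 tests of Gapdh and Actb the lowest adjusted p was 0.0794. With this difference as a covariate, 0, 0 and 2 of the 90 genes passed in male pups, female pups and adult males. The medians of the 70 liver subunits were then -0.08, -0.07 and -0.15. Of all 14217 genes, 538 were then higher and 561 lower in male pups. The counts were 379 and 273 in female pups, and 182 and 243 in adult males. Without the covariate they were 601 and 463, 562 and 310, and 265 and 290. Without adult PBDE replicate 5 the adult difference in the Gapdh value was 0.28 (exact permutation p = 0.0476).

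Some markers of other liver cells were lower with DE-71. In male pups 2 of 9 Kupffer cell markers and 3 of 6 sinusoidal endothelial markers were past the threshold and lower, with medians of -0.41 and -0.47. In female pups it was 0 of 9 and 1 of 6 (medians -0.16 and -0.31), and in adults 1 of 9 and 0 of 6 (medians -0.42 and -0.09). The summed Kupffer marker level on the log2 scale ran from 11.99 to 12.18 in male PBDE and from 12.42 to 12.69 in male control pups, from 12.12 to 12.55 in female PBDE and from 12.16 to 13.18 in female control pups, and from 11.88 to 12.57 in adult PBDE and from 12.47 to 13.04 in adult control males. The summed endothelial level ran from 11.79 to 12.16 in male PBDE and from 12.45 to 12.74 in male control pups, from 11.92 to 12.33 in female PBDE and from 12.42 to 12.69 in female control pups, and from 11.84 to 12.35 in adult PBDE and from 12.08 to 12.35 in adult control males. None of these 15 markers lay below the array median. Of 4 cholangiocyte markers 1 was past the threshold and higher in each dose comparison. Of 9 stellate cell markers 1 was higher and 1 lower in male pups, 0 higher and 1 lower in female pups, and 1 higher and 0 lower in adults, while 0 of 5 erythroid and 0 of 6 lymphocyte markers passed. The erythroid median was nevertheless the largest of these lists, 0.78 in female pups, with a summed level of 14.01 to 14.36 in female PBDE pups and 13.62 to 14.02 in female control pups, and it was 0.11 in male pups and -0.09 in adults. Hepatocyte markers had medians of -0.06, -0.11 and -0.04. In whole liver, fewer cells of a type and less RNA per cell cannot be told apart, and the part of cell makeup in the differences above was not tested.

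Around the complexes, some carriers and regulators passed the threshold. Slc25a4, the heart and muscle form of the ADP/ATP carrier of the inner membrane, fell with DE-71 by 1.12 ± 0.14 on the log2 scale in male pups (adjusted p 4.46e-06) and by 0.79 ± 0.14 in female pups (adjusted p 0.000483). Etfb, a subunit of the flavoprotein that feeds electrons from fatty acid oxidation into the chain, was lower in female pups (-0.35, adjusted p 0.00825) and adult males (-0.35, adjusted p 0.0212). In the list of 13 electron carriers and exchangers measured, 1 was lower in male pups, 1 higher and 2 lower in female pups, and 1 lower in adults, with medians of -0.10, -0.12 and -0.08. Of all genes 3.26%, 2.18% and 2.04% were lower in these comparisons, and 4.23%, 3.95% and 1.86% higher. The shares of lower genes in the list were above these, in a list chosen with earlier results known. The calls of Slc25a4 held without any single array of the 10 in each comparison. Those of Etfb were lost without 7 of 10 arrays in female pups (control replicates 1 to 3, PBDE replicates 1, 2, 3 and 5; adjusted p up to 0.0361) and without 3 of 10 in adults (control replicates 2 and 4, PBDE replicate 5; up to 0.0879).

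Of 18 regulators of mitochondrial gene expression and DNA, 3 were lower in male pups, 2 in female pups and 1 in adults, and 0 were higher, with medians of -0.13, -0.10 and 0.01. The shares of lower genes were above the 3.26%, 2.18% and 2.04% of all genes, again in a list chosen with earlier results known. The mitochondrial DNA polymerase gene Polg differed by -0.42 ± 0.09 in male pups (adjusted p 0.0032) and by -0.53 ± 0.09 in female pups (adjusted p 0.000434). Ppargc1a, which encodes the coactivator PGC-1alpha of mitochondrial genes, differed by -0.59 ± 0.12 in female pups (adjusted p 0.0019). Its relatives Ppargc1b and Pprc1 differed by -0.86 ± 0.20 (adjusted p 0.00531) and -0.83 ± 0.20 (adjusted p 0.00588) in male pups. In female pups Polg and Ppargc1a kept their calls without any single array. Polg lost its call in male pups without control replicate 1 or 2 or PBDE replicate 3 (adjusted p up to 0.0154), Ppargc1b without control replicate 1, 2, 3 or 5 or PBDE replicate 1, 2, 3 or 4 (up to 0.0202), and Pprc1 without control replicate 1, 2 or 5 or PBDE replicate 2, 3, 4 or 5 (up to 0.0286). Polrmt, the mitochondrial RNA polymerase gene, was the 1 called in adults (-0.29 ± 0.08, adjusted p 0.0346), and lost its call without control replicate 1, 3 or 4 or PBDE replicate 3, 4 or 5 (up to 0.111).

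Of 73 mitochondrial ribosomal protein genes, 1 was lower in male pups, 2 were higher in female pups and 1 was lower in adults, with medians of -0.05, 0.01 and -0.14. The higher were Mrpl14, of the large subunit (0.60 ± 0.12, adjusted p 0.00164), and Mrpl17 (0.32 ± 0.07, adjusted p 0.00424). The lower were Mrpl48 in male pups (-0.58 ± 0.14, adjusted p 0.00607) and Mrpl52 in adults (-0.41 ± 0.10, adjusted p 0.0177). Of 28 assembly factors outside the symbol rule, 1 was lower in male pups and 1 higher in adults (medians -0.02, 0.05 and -0.11). They were Surf1 (-0.33 ± 0.08, adjusted p 0.00938) and Acad9 (1.10 ± 0.29, adjusted p 0.0305). Of 16 genes of the citric acid cycle and pyruvate metabolism, 1 was lower in each sex of pups and 0 were called in adults (medians -0.03, -0.00 and -0.04). Sucla2, a subunit of succinyl-CoA synthetase, was the one in female pups (-0.31 ± 0.06, adjusted p 0.00183). Pc was the one in male pups (-0.46 ± 0.11, adjusted p 0.00726). Of 15 import and quality control genes, 1 was called, higher, in female pups (medians -0.02, 0.08 and -0.02). It was Yme1l1 (0.27 ± 0.06, adjusted p 0.00428). Leaving out 1 array in turn lost the calls of Surf1 in 9 of 10 fits, Pc in 8, Acad9, Mrpl48 and Yme1l1 in 5, and Mrpl17 and Mrpl52 in 4. Those of Mrpl14 and Sucla2 held. These lists were chosen with earlier results of these data known, and their counts stand beside the 7.48%, 6.13% and 3.9% of all genes that passed.

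Sex made no difference that passed the test. In PBDE pups 0 of 90 genes differed between females and males, where 0.0563% of all genes did (0.0281% higher and 0.0281% lower). In control pups it was 0 of 90, where 0.0422% did (0.0281% higher and 0.0141% lower). At an unadjusted p under 0.05 there were 3 of 90 (3.33%) in PBDE pups, beside 5.15% of all genes, and 3 of 90 in control pups, beside 8.71%. In PBDE pups Cox6c, a small subunit of complex IV, had non-overlapping groups: 13.32, 13.43, 13.25, 13.37 and 13.32 in females, against 13.09, 13.18, 13.25, 13.21 and 13.19 in males (difference 0.15 ± 0.06, adjusted p 0.957). The lowest female and the highest male value met at 13.25. The share of all genes not overlapping was 1.06% in PBDE pups (0.485% higher and 0.577% lower). In control pups 0 of 90 did not overlap, where 1.55% of all genes did not (0.724% higher and 0.823% lower). The sex by dose term was past the threshold in 0 of 90 and in 0 of all genes (background 0%), by limma, with 2 of 90 (2.22%) at an unadjusted p under 0.05, beside 5.63% of all genes.

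Age, from postnatal day 22 to week 13, was tested at a false discovery rate of 0.05, and genes passed in both directions. At that rate the dose counts were 0 higher and 5 lower in male pups. They were 3 and 3 in female pups, and 0 and 3 in adults. Of all 14217 genes, 1100 were higher and 923 lower with dose in male pups at that rate. The counts were 970 and 613 in female pups, and 265 and 290 in adults. The array prefix cannot be told apart from age. The Gapdh 3' minus 5' value averaged 1.17 in adult and 2.09 in pup PBDE males, and 0.62 and 1.61 in control males. With it as a covariate, 0 genes were higher and 8 lower in PBDE males, and 1 higher and 6 lower in control males. Of all 14217 genes, 629 were then higher and 1152 lower in PBDE males, against 739 and 1931 without the covariate. In control males they were 1171 and 1540, against 1554 and 2639. The part of the Gapdh value was not tested. The study's text names age only within its age by dose test, so the 2 age comparisons below, adult minus pup, are its parts. In PBDE males 1 of 90 was higher and 9 were lower in adults, where 18.8% of all genes passed (5.2% higher and 13.6% lower). In control males 7 were higher and 6 lower, where 29.5% of all genes passed (10.9% higher and 18.6% lower). The shares of 11.1% and 14.4% are below the background in both. Groups did not overlap for 0 higher and 7 lower genes in PBDE males, beside 3.76% and 9.69% of all genes (13.4% in all), and for 5 higher and 4 lower in control males, beside 7.69% and 13.4% (21.1% in all). The 2 comparisons share no array, although both cross the same 2 array prefixes. In both, 7 genes passed with the same direction: Sdha was higher, and Ndufaf4, Atp5if1, Ndufs4, Ndufs1, Ndufa9 and Atp5f1b were lower. They are 70% of the 10 called in PBDE males and 53.8% of the 13 called in control males. The share of all genes that passed in both was not counted, so these 2 percentages have no background beside them.

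**Figure D4:**
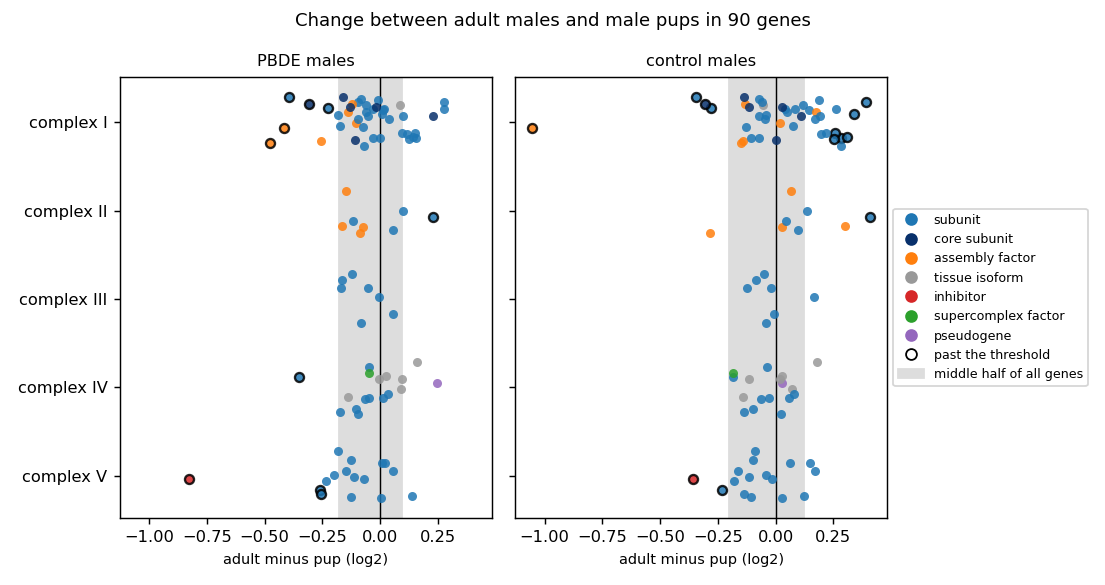
Difference adult minus pup on the log2 scale (horizontal axis) for each of 90 genes (points), by complex, in PBDE males and control males. Colours, rings and the grey band are as in the plot of dose differences; Atp5if1 lies farthest left in PBDE males (-0.83) and Ndufaf4 in control males (-1.05), and Sdha is ringed on the right in both.

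Ndufaf4, whose product helps to assemble complex I, had the largest difference with age in control males. It read 8.91, 8.80, 8.94, 9.15 and 8.98 in adult control males, against 9.68, 10.45, 9.82, 10.00 and 10.09 in male control pups (difference -1.05 ± 0.12, adjusted p 2.35e-07). All adult values lay below all pup values. In PBDE males it read 9.03, 9.42, 9.17, 9.12 and 8.87 in adults, against 9.73, 9.62, 9.58, 9.42 and 9.34 in pups (difference -0.42 ± 0.12, adjusted p 0.0226), and adult replicate 2 overlapped the pups. That call was lost without pup PBDE replicate 1 or adult PBDE replicate 5 (adjusted p up to 0.0717) and with the Gapdh covariate. For Ndufaf4 the age by dose term was 0.64 (adjusted p 0.0556), the lowest adjusted p of the 90 genes.

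The catalytic subunit gene of complex II, Sdha, stood higher in adults. It read 11.64, 11.59, 11.67, 11.65 and 11.86 in adult control males, against 11.36, 11.27, 11.42, 11.08 and 11.23 in male control pups (difference 0.41 ± 0.07, adjusted p 0.000141), without overlap. In PBDE males it read 11.69, 11.74, 11.65, 11.85 and 11.45 in adults, against 11.37, 11.48, 11.40, 11.57 and 11.42 in pups (difference 0.23 ± 0.07, adjusted p 0.0389), and adult replicate 5 lay among the pups. The PBDE call was lost without pup replicate 1, 2, 3 or 5 or adult replicate 1, 2, 3 or 4 (adjusted p up to 0.128), with the compared groups alone, with the replicate block and with the Gapdh covariate. For Sdhd the second probe set passed with age in control males (0.30 ± 0.11, adjusted p 0.043 by limma). Its representative probe set differed by 0.14 there and did not pass. In PBDE males the second probe set differed by 0.14 (adjusted p 0.44).

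Ndufs1, the largest core subunit of complex I, and Ndufs4, an accessory subunit of its matrix arm, were lower in adults whatever the dose. Ndufs4 read 9.62, 9.66, 9.70, 9.45 and 9.59 in adult PBDE males, against 10.08, 10.02, 9.95, 9.86 and 10.09 in male PBDE pups (difference -0.40 ± 0.07, adjusted p 0.000211). It read 9.57, 9.65, 9.68, 9.94 and 9.49 in adult control males, against 10.14, 9.97, 9.98, 10.02 and 9.97 in male control pups (difference -0.35 ± 0.07, adjusted p 0.000536). Neither pair of groups overlapped, with adult control replicate 4 nearest the pups. Ndufs1 differed by -0.31 ± 0.06 in PBDE males (adjusted p 0.000578) and by -0.30 ± 0.06 in control males (adjusted p 0.000329), also without overlap. All 4 calls held without any single array and under every other setting tried. The ATP synthase beta subunit gene Atp5f1b (-0.26 and -0.23 in PBDE and control males) and the complex I gene Ndufa9 (-0.22 and -0.28) were lower as well; they fall outside the naming rule and are named for their calls.

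Atp5if1, the inhibitor of the ATP synthase, was lower in adults, more so in PBDE males by value. It read 9.02, 8.48, 8.58, 8.64 and 8.31 in adult PBDE males, against 9.55, 9.32, 9.47, 9.36 and 9.46 in male PBDE pups (difference -0.83 ± 0.12, adjusted p 1.6e-05), and these groups did not overlap. It read 8.44, 8.87, 8.58, 9.13 and 8.56 in adult control males, against 9.28, 8.76, 9.09, 9.26 and 8.97 in male control pups (difference -0.36 ± 0.12, adjusted p 0.0345), and these did overlap. The age by dose term of -0.47 ± 0.17 did not pass (adjusted p 0.179). The control call was lost without adult replicate 1, 3 or 5 or pup replicate 1, 3 or 4 (adjusted p up to 0.107), and its value was -0.08 when the 3 probe sets of the gene were averaged. Its 2 dimmer probe sets differed by -0.15 and 0.27 in control males. In PBDE males they differed by -0.46 (adjusted p 0.00953) and 0.25 (adjusted p 0.391).

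In control males, subunits of complex I other than Ndufs1, Ndufs4 and Ndufa9 were higher where they passed. Ndufb10 read 11.38, 11.40, 11.33, 11.53 and 11.18 in adult control males, against 11.15, 10.72, 11.14, 10.96 and 10.88 in male control pups (difference 0.39 ± 0.12, adjusted p 0.0146), with no overlap. Ndufa4 differed by 0.31 ± 0.09 (adjusted p 0.00851), Ndufa5 by 0.34 ± 0.12 (adjusted p 0.0339) and Ndufa11 by 0.28 ± 0.08 (adjusted p 0.00924). Ndufa13 and Ndufb6, named for their calls, differed by 0.26 and 0.25. In PBDE males these 6 genes differed by 0.27, 0.14, 0.01, 0.15, 0.09 and 0.13 in the order given, and 0 passed. The calls of Ndufa5 (without pup replicate 2 or 5 or adult replicate 4, adjusted p up to 0.158), Ndufb10 (without pup replicate 2, 0.055), Ndufa13 (without pup replicate 2 or adult replicate 4, up to 0.106) and Ndufb6 (without pup replicate 2 or 5 or adult replicate 2, 3, 4 or 5, up to 0.133) were lost without these arrays. Fitting the 2 groups alone ended the calls of Ndufa5, Ndufa13 and Ndufb6. With the Gapdh covariate all 6 were lost, and the Ndufb10 difference was 0.19.

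In PBDE males 3 further genes were lower in adults. Ndufaf1, another complex I assembly factor, read 7.23, 7.21, 6.95, 6.76 and 7.15 in adult PBDE males, against 7.61, 7.41, 7.64, 7.48 and 7.54 in male PBDE pups (difference -0.48 ± 0.10, adjusted p 0.00174), without overlap, and its call held under every setting tried. Cox5a differed by -0.35 ± 0.10 (adjusted p 0.0167) and lost its call without pup replicate 5 or adult replicate 4 (adjusted p up to 0.0708) and, at -0.16, with the Gapdh covariate. Atp5me, a membrane subunit of the ATP synthase named here for its call, differed by -0.25 ± 0.07 (adjusted p 0.00814) and lost its call with the Gapdh covariate and with the mean of its probe sets. The call of Ndufa9 in PBDE males was lost without pup replicate 1, 2 or 5 or adult replicate 4 or 5 (adjusted p up to 0.0768).

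Whether DE-71 acted differently at the 2 ages was tested by the age by dose term, and 0 of 90 genes passed, against 2.48% of all genes (1.13% higher and 1.35% lower). At an unadjusted p under 0.05 there were 5 of 90 (5.56%), 1 higher and 4 lower, beside 16.1% of all genes. The median of the term was -0.05 over the 90 genes and -0.01 over all genes. Ndufaf4 passed without adult PBDE replicate 5, male control pup replicate 1 or 3, or male PBDE pup replicate 1. The dose comparison of male pups shares the male control pups with age in control males, and the male PBDE pups with age in PBDE males. That of adults shares the adult control males and the adult PBDE males in the same way. Values such as those of Ndufaf4 in these comparisons are therefore not independent. Ndufb10 was called lower in adults with DE-71 and higher with age in control males, and both calls use the adult control males.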

How the data were processed

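Liver RNA from 30 rats was hybridised to 30 arrays, 5 in each of 6 groups. The deposited values are log2 intensities that the authors obtained by RMA, according to the submitters' processing notes; which software ran it is not given in the sources. RMA equalises the distributions of the arrays, so a shift of all transcripts together would not be seen. Differences were fitted with limma 3.58.1 in R 4.3.3 (lmFit and eBayes), with 1 mean per group over 30 arrays and Benjamini-Hochberg adjustment over 31042 probe sets, 57 control probe sets left out. The false discovery rate was 0.01 in pups and 0.05 for adults and age, after the study's design text. That text names R/maanova for the tests, which was not installed, and limma was used in its place. The calls given here are therefore not the study's own. Of 31099 probe sets, 20826 named 1 gene, 436 several and 9780 none; 7 that named a member beside another gene were left out. Control probe set differences were tested by exact two-sided permutation. Python 3.11.15, pandas 2.3.3, scipy 1.17.1 and matplotlib 3.10.9 were also used, and the fit was tested on simulated data.

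The members, lists and tests were chosen with earlier results of these data known. Genes were named by rule: up to 6 with the largest change past the threshold in a comparison, the highest and lowest mean of each complex, Sdha to Sdhd, the isoform pairs, the assembly factors as a count, and up to 2 genes per list and dose comparison. Genes named outside it were chosen after their values were seen. Replicate numbers gave no sign of pairing between groups. The mean residual correlation was 0.0042 over 75 pairs with the same number and -0.0009 over pairs with other numbers. Of the 75 pairs, 18 were above 0.1. The number of arrays limits the precision. Alternatives were another choice of groups in the fit, a replicate block, robust shrinkage, a filter on low values, renewed quantile normalization, centring, the mean of a gene's probe sets, the Gapdh covariate and leaving out arrays.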

Additional observations from a re-analysis of the deposited data

Results flagged for a closer look

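Of 210 groups of 5 values, 18 held a value far from the other 4 of its group, and chance gives about 1 in 20 groups. Adult PBDE replicate 5 was far from its group in 3 measures, with a Gapdh 3' minus 5' difference of 2.25 (next 1.04), an Actb difference of 3.78 (next 2.49) and an Atp5mc3 value of 13.18 (next 13.38). Among female PBDE pups, Atp5if1 was highest in replicate 4 at 9.8 (next 9.51) and Sdhb lowest in replicate 5 at 11.36 (next 11.6). Female control pup replicate 4 was lowest for Atp5mc3 at 13.52 (next 13.68), Cox8a at 12.81 (next 13.06) and Cox8b at 4.01 (next 4.18). Among male PBDE pups, replicate 4 was lowest for Uqcrq at 13.1 (next 13.21) and Cox6b2 at 3.92 (next 4.44), replicate 3 for Ndufa5 at 9.81 (next 10.01) and replicate 5 for Cox8b at 3.87 (next 4.21). In the same group replicate 2 was highest for Cox7a1 at 4.64 (next 4.46) and Cox7b2 at 3.68 (next 3.46). Among male control pups, replicate 2 was lowest for Cox4i1 at 12.76 (next 12.93), replicate 5 lowest for Cox4i2 at 4.02 (next 4.24) and replicate 1 highest for Ndufs4 at 10.14 (next 10.02). In adult control males Ndufa5 was highest in replicate 4 at 10.71 (next 10.23).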

How the results depend on the processing

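Counts of genes past the threshold were small and moved with the processing. Those of all genes moved as well. In adults 265 of 14217 genes were higher and 290 lower with dose, and 97 and 76 with the compared groups alone. In male pups the count of 1 was 0 with the Gapdh covariate, 0 with the compared groups alone, 2 with the filter on low values, 5 at a false discovery rate of 0.05, and 0 to 2 on leaving out 1 array. In female pups the count of 2 was 0 with the Gapdh covariate, 1 with centring, 4 with the filter, 6 at 0.05, and 0 to 1 on leaving out 1 array. In adults the count of 3 was 0 with the compared groups alone, 7 with the filter, 5 with the replicate block, and 0 to 9 on leaving out 1 array. With age the count of 13 in control males was 7 with the Gapdh covariate and 11 to 15 on leaving out 1 array, and the count of 10 in PBDE males was 7 to 13. The age by dose count of 0 was 1 with the filter, 1 with renewed quantile normalization and 0 to 1 on leaving out 1 array. The replicate block moved no other count by over 1.5 times (1, 2, 14 and 9 in male pups, female pups, age in control males and age in PBDE males). On leaving out 1 array the Gapdh difference was 0.54 to 0.88 in female pups, and the Actb difference 0.58 to 0.89 in female pups and 0.28 to 0.69 in adults. No gene past its threshold changed sign under these settings. Medians of the 90 genes near 0 did: that of age in control males (-0.00) in 7 of 18 alternatives, up to 0.02, that of sex in control pups (0.02) in 1 of 19, at -0.02 without male control pup replicate 2, and that of sex by dose (0.03) in 2 of 29, down to -0.00. Of the 70 liver subunits in adults, up to 4 turned above 0. The cause of these moves was not tested.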
